A study of Mus musculus with 16 samples.

Results

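The fibrillar collagen genes were followed through 16 mouse heart transcriptomes as the rows of the deposited count table whose Ensembl identifiers carry the symbols Col1a1, Col1a2, Col2a1, Col3a1, Col5a1, Col5a2, Col5a3, Col11a1, Col11a2 and Col24a1. These 10 genes stood among 55487 in the table. The genes were chosen by name and not by a rule on their values, but with earlier results of these data known. Of the 10, 8 passed a filter on low counts that left 18275 genes for testing, and Col2a1 and Col24a1 did not.

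RNA came from the heart apex of male mice killed 4 weeks after transverse aortic constriction (TAC), a narrowing of the aorta that raises the pressure the left ventricle works against, or after a sham operation without ligation. Control animals (genotype label WT, abbreviated Ctrl) and CARDINAL-KO animals (KO), in which the long noncoding RNA gene Cardinal (Gm12295) had been knocked out with CRISPR/Cas9, no restriction to a tissue being named, each underwent both operations. The 4 groups (sham and TAC of Ctrl, sham and TAC of KO) held 4 libraries each, and each library carries an animal number of its own. Their strain and age are not given in the sources used here. Every sample is bulk tissue, in which a change in the number of cells of a type and a change in RNA per cell cannot be told apart.

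Library totals ran from 53169437 to 79404714 counts, and mitochondrial genes took 26.8 to 28.8% of them in Ctrl sham, 27.1 to 28.4% in KO sham, 21.9 to 27% in Ctrl TAC and 23.4 to 25.1% in KO TAC. That share was below every sham library in 7 of the 8 TAC libraries, all but Ctrl TAC 3, and its part in the collagen results was not tested. Gm12295 stood at 3.24 to 3.86 CPM (counts scaled to a common library total) in Ctrl sham, at 0.297 to 0.553 in KO sham, at 2.69 to 8.02 in Ctrl TAC and at 0.276 to 0.371 in KO TAC 1, 2 and 3. The library labelled KO TAC 4 had 4.54 CPM of it and so goes against its label. Fits and ratios that use KO TAC were also run without that library, and the values are given beside the collagen results. The animal numbers start with 25 in Ctrl TAC 2, 3 and 4 and in KO TAC 4 and with 3 in the other 12 libraries, and the labels do not say what the numbers stand for.

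Fibrillar collagens are secreted as procollagen trimers, trimmed by proteinases outside the cell, assembled into fibrils and cross-linked by lysyl oxidases. In the heart they are made mainly by fibroblasts, with types I and III forming the bulk of the interstitial network and type V joining the fibrils as a minor component that takes part in starting them and setting their width. Types II and XI are best known from cartilage, and type XXIV from developing bone. Excess deposition of these proteins is what histologists call fibrosis.

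Col1a1 (ENSMUSG00000001506, chr11:94936224-94953042, plus strand, GRCm38) and Col1a2 (ENSMUSG00000029661, chr6:4504814-4541544, plus) encode the chains of type I collagen, and Col3a1 (ENSMUSG00000026043, chr1:45311538-45349706, plus) the chain of type III. The type V chains come from Col5a1 (ENSMUSG00000026837, chr2:27886425-28039514, plus), Col5a2 (ENSMUSG00000026042, chr1:45374321-45503282, minus) and Col5a3 (ENSMUSG00000004098, chr9:20770050-20815067, minus). Col11a1 (ENSMUSG00000027966, chr3:114030540-114220718, plus) and Col11a2 (ENSMUSG00000024330, chr17:34039437-34066685, plus) encode type XI chains, Col2a1 (ENSMUSG00000022483, chr15:97975602-98004695, minus) the type II chain and Col24a1 (ENSMUSG00000028197, chr3:145292472-145552011, plus) the type XXIV chain. Col3a1 and Col5a2 are neighbours that end towards each other, with 24614 bases and 0 annotated genes between them. All 10 are annotated as protein coding, and the values are sums over exons. In the annotation the exons of Col3a1 overlap a microRNA gene, Gm47302, by 141 bases on the same strand, and those of Col5a1 overlap the minus-strand transcripts 2810430I11Rik and Gm13372 by at most 113 bases. Reads in those bases cannot be assigned with certainty, and no other member had an exon overlap.

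RefSeq promoter entries (GRCm38.p6) existed for 7 of the 10 genes and not for Col1a1, Col2a1 or Col5a2. The 250 bases before the RefSeq start are shown for Col1a2, Col3a1 and Col5a1, one abundant gene of each collagen type that rose after TAC. They are also shown for Col11a2, the one gene called lower after TAC, in KO hearts only. Capitals mark matches on either strand to the letters of the CCAAT box (CCAAT), the TATA box (TATAAA), the GC box (GGGCGG), an AP-1 site (TGANTCA) or a TEAD site (CATTCC).
Col1a2, chr6:4505368-4505617, plus strand: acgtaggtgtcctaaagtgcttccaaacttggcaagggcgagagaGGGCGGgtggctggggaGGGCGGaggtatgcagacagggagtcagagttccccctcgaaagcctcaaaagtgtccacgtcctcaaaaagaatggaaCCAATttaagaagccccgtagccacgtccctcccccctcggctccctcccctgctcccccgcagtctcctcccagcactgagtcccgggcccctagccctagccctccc
Col3a1, chr1:45311288-45311537, plus strand: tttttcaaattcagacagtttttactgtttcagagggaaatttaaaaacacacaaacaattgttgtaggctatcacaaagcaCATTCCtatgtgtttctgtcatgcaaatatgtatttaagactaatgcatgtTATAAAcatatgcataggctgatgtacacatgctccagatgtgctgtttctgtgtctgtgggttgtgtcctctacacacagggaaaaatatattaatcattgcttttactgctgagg
Col5a1, chr2:27886175-27886424, plus strand: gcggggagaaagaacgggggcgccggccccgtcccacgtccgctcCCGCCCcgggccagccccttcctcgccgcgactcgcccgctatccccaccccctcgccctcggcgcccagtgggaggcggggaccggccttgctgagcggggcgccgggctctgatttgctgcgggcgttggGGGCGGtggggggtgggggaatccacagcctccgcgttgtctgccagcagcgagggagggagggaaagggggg
Col11a2, chr17:34038888-34039137, plus strand: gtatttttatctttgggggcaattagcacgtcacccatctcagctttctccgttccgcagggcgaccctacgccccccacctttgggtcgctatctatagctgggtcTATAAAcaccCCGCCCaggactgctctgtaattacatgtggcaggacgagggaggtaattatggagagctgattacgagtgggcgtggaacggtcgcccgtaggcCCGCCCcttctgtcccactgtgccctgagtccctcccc

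The windows differed widely in base composition. G and C made up 35.2% of the Col3a1 window, which is more than in only 5% of the promoter windows in the table, and 76.4% of the Col5a1 window, more than in 97% of them. The windows of Col1a2 and Col11a2 held 62% and 57.6%, against a median of 52.4%. CCAAT began 109 bases before the start of Col1a2 and was absent from the other 3 windows shown, and 33.8% of all 32851 windows held it. GGGCGG or its reverse complement occurred at 2 positions in each of the Col1a2, Col5a1 and Col11a2 windows and not in that of Col3a1 (32.7% of all windows). TATAAA occurred 117 bases before the start of Col3a1 and 143 before that of Col11a2 (12.4%), and CATTCC at 168 bases before that of Col3a1 (12.6%). TGANTCA, held by 6.75% of all windows, was found in none of the 7. The RefSeq starts of Col1a2 and Col11a2 differ from the gene starts of the annotation used for the counts, and a match of letters does not show that a factor binds there.

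To place the genes against each other, levels were expressed as CPM per kilobase of the annotated transcript with the longest coding sequence. In Ctrl sham hearts Col1a2 (18 ± 2.83, mean ± SD, n = 4) and Col3a1 (17.9 ± 4.1) were the most abundant, and they did not separate: Col1a2 was the higher in 2 of the 4 libraries. Col1a1 followed at 8.22 ± 1.54, Col5a1 at 3.64 ± 0.348, Col5a2 at 2.98 ± 0.344, Col5a3 at 1.92 ± 0.441 and Col11a2 at 0.506 ± 0.172. The ranges of Col5a1 and Col5a2, and of Col5a2 and Col5a3, touched, although within each of the 4 libraries the order was the same. Col24a1 (0.0132), Col11a1 (0.00593) and Col2a1 (0.00153) were close to the limit of detection and could not be ordered.

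KO sham hearts had the same order of the first 7 genes, led by Col1a2 (17.6 ± 0.42) and Col3a1 (16 ± 1.31). After TAC the order changed in both genotypes. Col3a1 came first, at 57.5 ± 6.63 CPM per kilobase in Ctrl TAC and 75.1 ± 3.56 in KO TAC, followed by Col1a2 at 42.8 ± 5.84 and 56.6 ± 2.6 and Col1a1 at 26.1 ± 2.83 and 33.2 ± 1.28. Col5a2 stood above Col5a1 in each of the 8 TAC libraries (9.1 ± 1.13 against 7.91 ± 0.489 in Ctrl, 13 ± 0.625 against 9.07 ± 0.108 in KO), the reverse of the order in each of the 8 sham libraries. The KO TAC means without KO TAC 4 of Col3a1, Col1a2, Col1a1, Col5a2 and Col5a1 were 75.8, 57.3, 33.5, 13.2 and 9.08. Levels between genes depend on the length used. With the union of all annotated exons, a length chosen as an alternative after seeing the data, Col3a1 led in every group, Col1a1 stood above Col1a2 after TAC and Col5a1 ranked above Col5a2 (8.98 against 8.97 in KO TAC), while levels of 1 gene between groups are not affected.

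Together the 10 genes took 0.0299 ± 0.006% of all counts in Ctrl sham, 0.0276 ± 0.00177% in KO sham, 0.0877 ± 0.00918% in Ctrl TAC and 0.117 ± 0.00451% in KO TAC (0.118 ± 0.00321% without KO TAC 4). Col3a1 made up 33.4 ± 2.56% of their summed CPM per kilobase in Ctrl sham and 39.5 ± 0.866% in KO TAC. The share of Col1a2 was 34 ± 2.36% and 29.8 ± 0.83%, and that of Col5a3 3.63 ± 0.685% and 1.44 ± 0.138%. The 3 shares in KO TAC without KO TAC 4 were 39.4, 29.8 and 1.49%. Shares are parts of a whole, so that a higher share of one gene lowers the others.

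**Figure D1:**
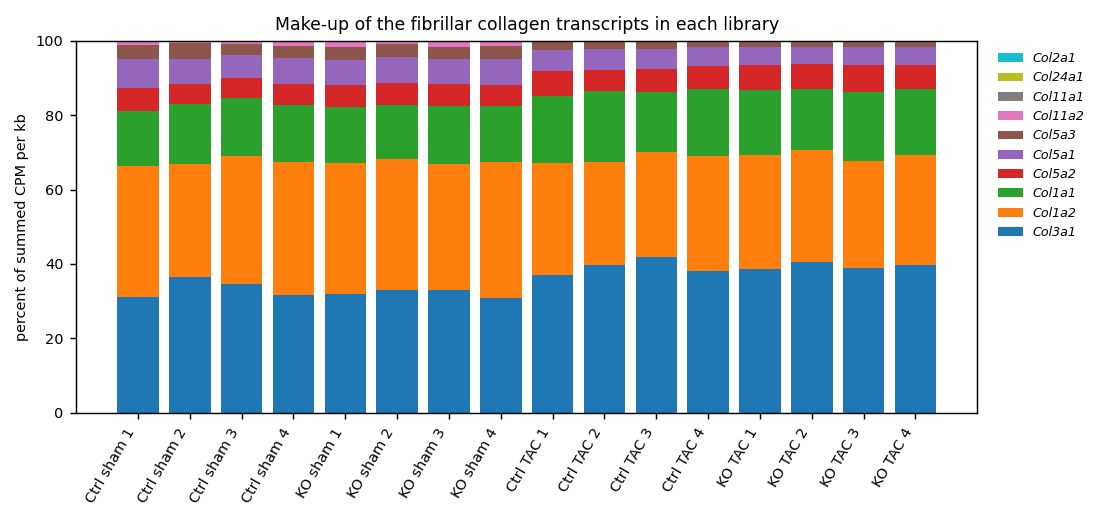
Stacked bars give, for each of the 16 libraries, the percent of the summed CPM per kilobase that each fibrillar collagen gene contributed. Col3a1, Col1a2 and Col1a1 made up most of every bar, and the parts of Col5a1 and Col5a3 were smaller in the TAC libraries than in the sham libraries.

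The first comparison asked how aortic constriction changed the fibrillar collagen genes in hearts that kept Cardinal. In control hearts 7 of the 8 tested genes rose, against 10.4% of all genes tested, and none fell. Of the 8, 6 had all TAC libraries above all sham libraries, which 10.5% of all genes did. The median log2 fold change of the 8 was 1.43, beside 0 over all genes tested. This count covers only the genes that passed the filter. Among them, Col11a1 had 0 to 7 counts in the sham libraries and 6 to 43 in the TAC libraries. It passed the filter through the TAC libraries, so its place in these counts and in the median is no separate support.

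Col1a1 stood at 36.3, 54.3, 56.6 and 47.7 CPM in the Ctrl sham libraries, 43.8, 44.1, 48.7 and 42.1 in KO sham, 143, 157, 142 and 178 in Ctrl TAC and 194, 194, 208 and 192 in KO TAC. In control hearts it rose 3.18-fold (log2 fold change 1.67 ± 0.11, SE; edgeR adjusted p = 5.5e-08). No TAC library overlapped a sham library of either genotype. Col1a2, its partner in type I trimers, stood at 76.7, 94.5, 113 and 102 CPM in the Ctrl sham libraries, 92.9, 95.8, 96 and 91.4 in KO sham, 214, 203, 225 and 274 in Ctrl TAC and 311, 318, 289 and 293 in KO TAC. It rose less than Col1a1, by 1.25 ± 0.1 on the log2 scale (adjusted p = 2.64e-07), again without overlap.

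Col3a1 stood at 70.3, 117, 118 and 93 CPM in the Ctrl sham libraries, 86.7, 93.3, 96.6 and 80.2 in KO sham, 275, 304, 346 and 354 in Ctrl TAC and 409, 448, 408 and 407 in KO TAC. Its rise in control hearts, 1.68 ± 0.13 (log2, adjusted p = 6.43e-07), was close in size to that of Col1a1. The lowest value of all 16 for both genes, and for Col1a2, Col5a1 and Col5a2, was in Ctrl sham 1.

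Among the type V genes, Col5a1, whose chain is present in most type V trimers, stood at 26.2, 32.3, 32.3 and 31.5 CPM in the Ctrl sham libraries, 28.3, 29.9, 30.1 and 27.7 in KO sham, 64.9, 64.3, 64.2 and 72.6 in Ctrl TAC and 76, 75.4, 77.5 and 75.9 in KO TAC. The rise in control hearts was 1.12 ± 0.06 (log2, adjusted p = 5.98e-09). Col5a2 stood at 16.5, 21.1, 21.6 and 19.9 CPM in the Ctrl sham libraries, 18.9, 19.6, 20.9 and 17.2 in KO sham, 59.4, 50.7, 62.2 and 68.8 in Ctrl TAC and 84.6, 86.8, 91.3 and 81.4 in KO TAC. It rose by 1.61 ± 0.09 (adjusted p = 8.49e-09), and neither gene had overlapping sham and TAC libraries. Col5a3, whose chain occurs in a less common form of type V, rose least, by 0.45 ± 0.13 (adjusted p = 0.0192). Its libraries overlapped, with 9.94 to 15.6 CPM in Ctrl sham and 13.5 to 18.6 in Ctrl TAC, and the call was lost in 4 of 24 alternative fits: without Ctrl sham 1, Ctrl sham 4 or Ctrl TAC 3 (adjusted p = 0.0726, 0.0598 and 0.063) and in a fit to the 8 Ctrl libraries alone (0.0734).

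The genes best known from cartilage behaved differently from each other. Col11a1 had 7, 0, 5 and 0 counts in the Ctrl sham libraries, 3, 2, 0 and 2 in KO sham, 6, 29, 12 and 22 in Ctrl TAC and 16, 32, 17 and 43 in KO TAC. These are few reads, 12 over the Ctrl sham libraries and 69 over Ctrl TAC. The fitted rise of 2.39 ± 0.69 (log2, adjusted p = 0.0199) depends on the count that the fit adds to low values, and the call was lost in 4 of 22 alternatives, which were without Ctrl sham 2 (adjusted p = 0.0533), without Ctrl TAC 2 (0.0592), with both Ctrl TAC 2 and KO TAC 4 left out (2.03, adjusted p = 0.0687) and with a term for the series of animal numbers (1.58, adjusted p = 0.274). Of the Ctrl animals, 3 of the 4 TAC animals and no sham animal belong to the series starting with 25. Col11a2 stood at 2.44, 1.8, 2.69 and 4.01 CPM in the Ctrl sham libraries, 4.61, 2.62, 4.41 and 3.39 in KO sham, 1.85, 2.45, 2.26 and 1.92 in Ctrl TAC and 1.97, 2.45, 1.27 and 1.96 in KO TAC. In control hearts its change of -0.36 ± 0.23 did not pass the test (adjusted p = 0.322), and the groups overlapped. Col2a1 had 0, 2, 0 and 0 counts in the Ctrl sham libraries, 6, 0, 2 and 0 in KO sham, 9, 14, 0 and 8 in Ctrl TAC and 4, 5, 2 and 0 in KO TAC. Col24a1 had 1, 6, 9 and 6 counts in the Ctrl sham libraries, 5, 5, 3 and 10 in KO sham, 8, 8, 3 and 10 in Ctrl TAC and 7, 11, 6 and 16 in KO TAC. Both were too sparse to be tested, and differences between groups were not detectable at this depth.

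**Figure D2:**
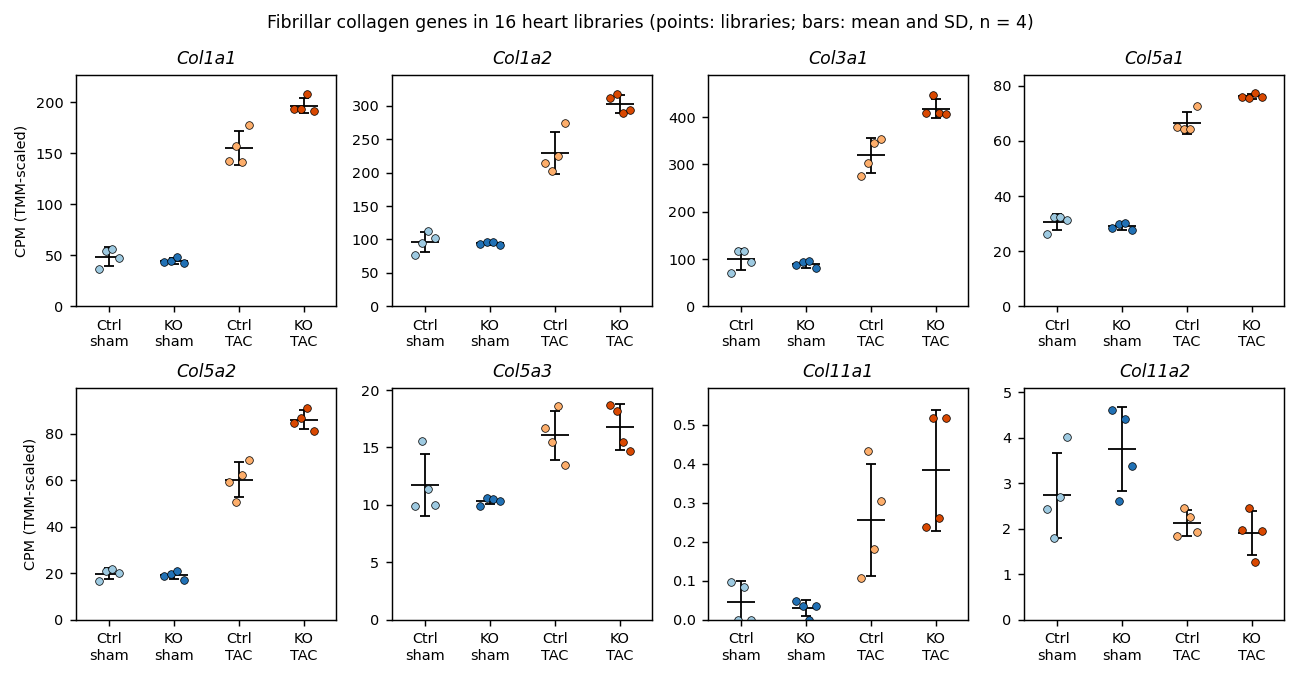
TMM-scaled CPM of the 8 tested genes in each library (points), with the group mean and SD (bars, n = 4), by group. The TAC libraries of Col1a1, Col1a2, Col3a1, Col5a1 and Col5a2 lie above all sham libraries, and Col5a3 overlaps in Ctrl but not in KO.

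In CARDINAL-KO hearts, the same 7 genes rose after TAC (17.8% of all genes tested) and Col11a2 fell (16.5% of all genes fell). The 7 also had all KO TAC libraries above all KO sham libraries, as 18% of all genes did. The median log2 fold change of the 8 was 1.91. Col3a1 changed by 2.23 (log2, adjusted p = 1.92e-08), Col5a2 by 2.17 (adjusted p = 1.56e-10), Col1a1 by 2.14 (adjusted p = 1.28e-09), Col1a2 by 1.69 (adjusted p = 4.42e-09) and Col5a1 by 1.39 (adjusted p = 1.56e-10). Col5a3 rose by 0.7 (adjusted p = 0.000443), and its KO libraries did not overlap. Col11a1 rose from 7 counts over the KO sham libraries to 108 over KO TAC (adjusted p = 0.000856). It passed the filter through its TAC libraries, so its rise is no separate support here either. Without the library labelled KO TAC 4, the log2 changes of the first 5 were 2.24, 2.19, 2.15, 1.7 and 1.4, and all 8 calls remained.

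Col11a2 fell by 0.97 on the log2 scale in KO hearts (SE 0.23, adjusted p = 0.00339). The 4 KO TAC libraries lay between 1.27 and 2.45 CPM, below the lowest KO sham library at 2.62. The KO sham mean, 3.76 ± 0.927 CPM, was the highest of the 4 groups, and the KO TAC mean of 1.92 ± 0.485 was close to the Ctrl TAC mean of 2.12 ± 0.285. The gene Rxrb, a nuclear receptor gene, ends 1037 bases before Col11a2 on the same strand (chr17:34031812-34038399). Rxrb deviated from its group means together with Col11a2 (Pearson r = 0.73 over 16 libraries, a description) and fell by 0.23 in KO hearts (adjusted p = 0.00577). Of the KO sham animals, 1, 2 and 3 have numbers starting with 33, as has Ctrl sham 4 and no TAC animal. With a term for those numbers the change of Col11a2 was -0.6 (adjusted p = 0.112) and that of Col11a1 2.69 (adjusted p = 0.0915), neither past the threshold. Whether reads running on from Rxrb enter the Col11a2 count was not tested.

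Comparing KO TAC with Ctrl TAC asked whether loss of Cardinal changed the collagen genes in the loaded heart. Of the 8 genes, 2 were higher in KO TAC at the threshold, Col5a2 and Col1a2, against 1.36% of all genes tested, and none was lower. The 5 genes Col1a1, Col1a2, Col3a1, Col5a1 and Col5a2 had all KO TAC libraries above all Ctrl TAC libraries, as 5.55% of all genes did. The median log2 difference of the 8 was 0.37. The Ctrl TAC libraries used here also entered the comparison with Ctrl sham, and the KO TAC libraries that with KO sham, so these comparisons are not independent.

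Col5a2 was higher in KO TAC by 0.51 on the log2 scale (adjusted p = 0.0104). The highest Ctrl TAC library had 68.8 CPM and the lowest KO TAC library 81.4, which was KO TAC 4, the library whose Gm12295 level goes against its label. Without it the difference was 0.54 (adjusted p = 0.0122). The call held in each of the 16 fits that left out 1 library and in 23 of 24 alternatives in all. It was lost with a term for the series of animal numbers in the model (0.49, adjusted p = 0.0862). In the series starting with 25, Ctrl TAC 2, 3 and 4 had 50.7, 62.2 and 68.8 CPM of Col5a2 and KO TAC 4 had 81.4, and in the series starting with 3, Ctrl TAC 1 had 59.4 and KO TAC 1, 2 and 3 had 84.6, 86.8 and 91.3. The only KO library of the series starting with 25 is thus the one whose Gm12295 goes against its label, and with 1 library on one side neither series is large enough for a test.

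Col1a2 was higher by 0.4 (adjusted p = 0.0375), but this call was unsteady. It was kept in 11 of 24 alternatives and 7 of the 16 fits without 1 library, and without KO TAC 4 the difference of 0.42 had an adjusted p of 0.0507. It was also lost without any one of the other TAC libraries except Ctrl TAC 4 (adjusted p from 0.0689 without Ctrl TAC 1 to 0.131 without Ctrl TAC 2) and without KO sham 1 or 2 (0.0525 and 0.0521). Col1a1 (0.35, adjusted p = 0.0846), Col3a1 (0.39, adjusted p = 0.123) and Col5a1 (0.2, adjusted p = 0.089) missed the threshold, and each passed it in 3 of the 24 alternatives, of which the fit without Ctrl sham 1 (adjusted p = 0.0202, 0.0299 and 0.0393) and DESeq2 (0.0253, 0.0353 and 0.0407) were common to the 3 genes. Without KO TAC 4 their differences were 0.36, 0.4 and 0.2 (adjusted p = 0.12, 0.159 and 0.135). Col5a3 (0.06, adjusted p = 0.845), Col11a1 (0.57, adjusted p = 0.626) and Col11a2 (-0.15, adjusted p = 0.793) passed it in none. For Col11a1 the KO TAC libraries together held 108 counts and the Ctrl TAC libraries 69.

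**Figure D3:**
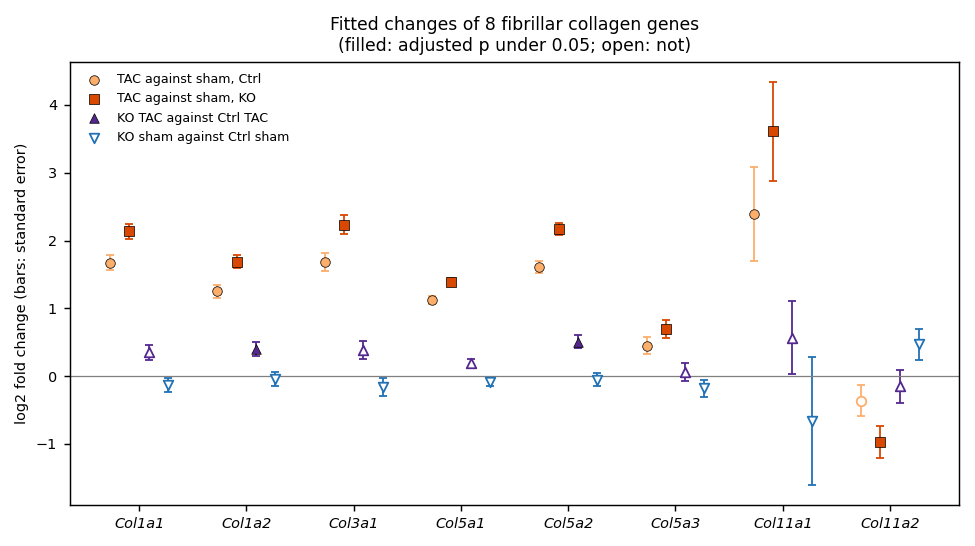
Fitted log2 fold changes of the 8 tested genes with their standard errors, in the comparisons of TAC with sham in each genotype and of KO with Ctrl after each operation. Filled symbols mark an adjusted p under 0.05: 7 genes for TAC in Ctrl, 8 for TAC in KO, 2 for KO TAC against Ctrl TAC (Col1a2 and Col5a2) and 0 for KO sham against Ctrl sham.

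Without constriction, deletion of Cardinal left no fibrillar collagen gene past the threshold. None of the 8 was called by edgeR in KO sham against Ctrl sham, as none (0%) of all genes tested was, while 479 of 18275 genes had an unadjusted p under 0.05 and DESeq2 called 3 genes, none of them a fibrillar collagen gene. The deleted gene Gm12295, at 3.24 to 3.86 CPM in Ctrl sham and 0.297 to 0.553 in KO sham, was not called by edgeR either. A missing call in this comparison therefore does not show that a gene was unchanged. The median log2 difference of the 8 was -0.1. The KO sham means of Col1a1 (44.7 ± 2.81 CPM), Col3a1 (89.2 ± 7.27) and Col5a2 (19.1 ± 1.53) lay within 1 SD of the Ctrl sham means of 48.8 ± 9.12, 99.7 ± 22.8 and 19.8 ± 2.28. Only Col11a2 had a positive difference, of 0.47, with an unadjusted p of 0.0572 in the same fit and an adjusted p of 1.

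The interaction asked whether the response to TAC itself differed between genotypes. For 7 of the 8 genes the response was larger in KO by the fitted value, with a median of 0.46 on the log2 scale, but none passed the test (0.0109% of all genes did, 2 genes, while 2024 had an unadjusted p under 0.05). The smallest adjusted p was that of Col5a2, 0.153, at a difference of 0.56. Col1a1 had 0.47 (adjusted p = 0.267), Col1a2 0.44 (adjusted p = 0.26), Col3a1 0.55 (adjusted p = 0.298) and Col5a1 0.27 (adjusted p = 0.267). Without KO TAC 4 none passed either, with 0.59 for Col5a2 (adjusted p = 0.136) and 0.49, 0.45, 0.56 and 0.27 for the other 4 in that order (adjusted p from 0.263 to 0.311). With DESeq2, Col5a2 was called (adjusted p = 0.0115) and the other genes were not. With 4 animals per group, a difference in response between genotypes was thus not shown for these genes.

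Ratios between members within a library need no scaling to library size and bear on the make-up of the fibrils' transcripts. There were 5 ratios and 5 comparisons, 25 in all. The exact two-sided permutation test on 4 against 4 libraries cannot give a p below 0.0286, and after Benjamini-Hochberg adjustment over the 25 no comparison passed 0.05. With that floor, 2 groups without any overlap could pass only if many of the 25 comparisons were as extreme. Missing the threshold therefore does not show that a ratio was unchanged. The ratio of Col1a1 to Col3a1 counts, often taken to reflect the balance of type I and type III collagen, was 0.493 ± 0.0258 in Ctrl sham, 0.502 ± 0.0214 in KO sham, 0.487 ± 0.0515 in Ctrl TAC and 0.472 ± 0.0319 in KO TAC. The groups overlapped in every comparison (exact permutation p from 0.257 to 0.857). The geometric mean changed with TAC by -1.59% in Ctrl and -5.97% in KO, and percent changes of the other ratios are also those of geometric means. Leaving out KO TAC 4, the ratio of Col1a1 to Col3a1 counts was 0.473 ± 0.039 in KO TAC (n = 3).

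Within type I, by contrast, Col1a1 gained on Col1a2. The ratio of counts was 0.505 ± 0.0489 in Ctrl sham and 0.68 ± 0.0638 in Ctrl TAC, 34.6% higher, and 0.475 ± 0.0219 in KO sham and 0.652 ± 0.0491 in KO TAC, 37.2% higher. In both genotypes every TAC library was above every sham library (exact permutation p = 0.0286, adjusted 0.0794). The genotypes after TAC overlapped (p = 0.514, exact permutation). Leaving out KO TAC 4, the KO TAC ratio was 0.651 ± 0.0601, 0.45 above KO sham on the log2 scale (adjusted exact p = 0.102).

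Within type V the balance moved from Col5a1 towards Col5a2. The ratio of Col5a1 to Col5a2 counts was 1.55 ± 0.0418 in Ctrl sham and 1.52 ± 0.0696 in KO sham. It was 1.11 ± 0.107 in Ctrl TAC, a change of -28.5% in the geometric mean, and 0.887 ± 0.0363 in KO TAC, a change of -41.6%. KO TAC differed from Ctrl TAC by -20%, and none of these 3 pairs of groups overlapped (exact permutation p = 0.0286 each, adjusted 0.0794). The interaction was -0.29 on the log2 scale (exact permutation over 4900 relabellings, p = 0.0265, adjusted 0.0794). Without KO TAC 4 the KO TAC ratio was 0.872 ± 0.0244, the log2 change with TAC in KO -0.8, the difference between the TAC groups -0.35 and the interaction -0.32 (adjusted exact p = 0.102, 0.102 and 0.153). The KO TAC libraries ran from 0.849 to 0.933 and the Ctrl TAC libraries from 1.03 to 1.27.

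Col5a1 also fell behind Col1a1. The ratio of their counts was 0.637 ± 0.0684 in Ctrl sham, 0.65 ± 0.0244 in KO sham, 0.431 ± 0.0257 in Ctrl TAC and 0.387 ± 0.0103 in KO TAC. The changes with TAC were -32.1% and -40.5%, and KO TAC differed from Ctrl TAC by -10.2%, with no overlap in any of the 3 pairs (exact permutation p = 0.0286 each, adjusted 0.0794). Without KO TAC 4 the KO TAC ratio was 0.384 ± 0.0104, with log2 differences of -0.76 from KO sham and -0.17 from Ctrl TAC (adjusted exact p = 0.102 and 0.214). The ratio of Col3a1 to its neighbour Col5a2 was 4.99 ± 0.634 in Ctrl sham, 4.66 ± 0.0719 in KO sham, 5.33 ± 0.583 in Ctrl TAC and 4.87 ± 0.295 in KO TAC, and all pairs of groups compared overlapped. It was 4.82 ± 0.343 in KO TAC without KO TAC 4.

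**Figure D4:**
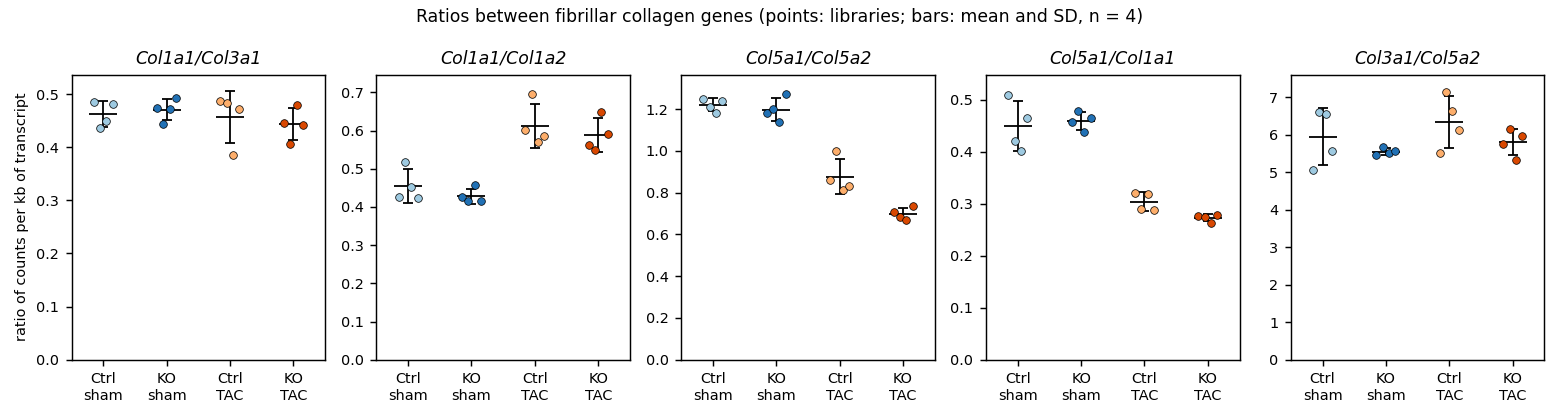
Ratios of counts per kilobase of transcript for 5 pairs of fibrillar collagen genes in each library (points), with the group mean and SD (bars, n = 4). Col1a1/Col3a1 and Col3a1/Col5a2 overlap between groups, Col1a1/Col1a2 is higher after TAC, and Col5a1/Col5a2 and Col5a1/Col1a1 are lower after TAC and lowest in KO TAC.

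Variation between libraries of a group was read over all 16 libraries. After the group mean of log2 CPM was subtracted, Pearson r between the 6 most abundant genes ran from 0.01 to 0.93 over the 16 libraries, with a median of 0.77 over 15 pairs. These are descriptions, and the points share library depth and scaling. Col1a1 and Col5a1 were the closest pair (r = 0.93), followed by Col1a1 with Col3a1 (0.86) and Col5a1 with Col5a2 (0.85). Col5a3 stood apart, with r from 0.01 with Col1a2 to 0.46 with Col3a1. The values were lower without Ctrl sham 1, in which Col1a1, Col1a2, Col3a1, Col5a1 and Col5a2 lay 0.22 to 0.47 below the group mean on the log2 scale. Without that library, an alternative chosen after seeing the data, r ran from -0.33 to 0.81 over the 15 pairs, with a median of 0.56, and from 0.51 to 0.81 over the 10 pairs among those 5 genes, where it had been 0.74 to 0.93. The groups were also read alone, with 4 libraries each. Over the same 10 pairs r ran from 0.83 to 1 in Ctrl sham, 0.79 to 1 in KO sham and 0.36 to 0.94 in Ctrl TAC, but from -0.76 to 0.94 in KO TAC, where 5 of the 10 were below 0, among them Col1a2 with Col5a1 (-0.76), Col3a1 with Col5a1 (-0.58) and Col1a1 with Col1a2 (-0.55). The 5 genes lay only -0.08 to 0.1 from their means in KO TAC (Col5a1 -0.01 to 0.02), against -0.47 to 0.28 in Ctrl sham. With so little spread over 4 libraries, KO TAC 4 among them, these r do not show that the genes ceased to vary together. The neighbours Col3a1 and Col5a2 had r = 0.78, between pairs on different chromosomes such as Col1a1 with Col1a2 (0.77) and Col1a2 with Col5a1 (0.84).

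**Figure D5:**
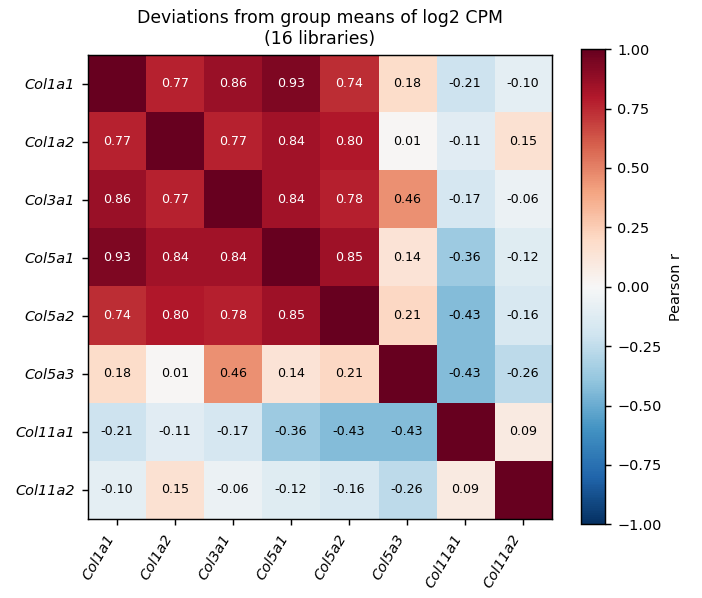
Pearson r between the 8 tested genes of log2 CPM after the group mean was subtracted, over 16 libraries. Pairs among Col1a1, Col1a2, Col3a1, Col5a1 and Col5a2 lie between 0.74 and 0.93, and pairs with Col5a3, Col11a1 or Col11a2 lie at 0.46 or below. In KO TAC alone, where these genes spread little between the 4 libraries, 5 of the 10 pairs among the first 5 genes had an r below 0.

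Among 10199 genes of sufficient level, those most like Col1a1 by the same measure were Nes (an intermediate filament gene, r = 0.86), Ccn1 (a matricellular protein, 0.85), Thbs1 (thrombospondin, 0.85), Col15a1 (a basement membrane zone collagen, 0.8) and Cilp (a matrix protein, 0.8). For Col3a1 they were Gmip (a GTPase-activating protein, 0.9), Thbs1 (0.84), Col6a1 (a chain of the beaded-filament collagen, 0.84), Nes (0.83) and Dse (a dermatan sulfate epimerase, 0.8). For Col5a1 they were Thbs1 (0.91), Col15a1 (0.89), Nes (0.89), Pcolce2 (an enhancer of procollagen trimming, 0.85) and Dbn1 (an actin-binding protein, 0.85). Nes and Thbs1 were named for all 3 genes. Without Ctrl sham 1 the r of the named genes lay between 0.46 (Cilp with Col1a1) and 0.85 (Col15a1 with Col5a1). Thbs1 rose with TAC by 2.12 in Ctrl (adjusted p = 2.32e-06) and 2.64 in KO (adjusted p = 7.26e-08), while Nes changed by 0.23 (adjusted p = 0.0835) and 0.51 (adjusted p = 0.000279).

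The genes that process, partner, bind and break down fibrillar collagens were counted in the same fits. Over all genes tested, 10.4% rose and 9.6% fell with TAC in Ctrl, 17.8% rose and 16.5% fell in KO, and 1.36% were higher and 1.32% lower in KO TAC than in Ctrl TAC, and the counts of each list and of the cell markers stand beside these shares. Of 29 genes for procollagen processing and cross-linking, 16 rose and 1 fell with TAC in Ctrl, 17 rose and 3 fell in KO, and 6 were higher and 2 lower in KO TAC than in Ctrl TAC. The median log2 changes were 0.27, 0.33 and 0.17. With KO TAC 4 left out, 17 rose and 2 fell in KO, and 5 were higher and 1 lower in KO TAC. Loxl2, a lysyl oxidase-like cross-linking enzyme, went from 11.7 ± 1.75 CPM in Ctrl sham to 36.6 ± 3.4 in Ctrl TAC (log2 1.65 ± 0.11, adjusted p = 5.66e-08). Lox, which encodes lysyl oxidase, went from 3.04 ± 0.284 to 8.96 ± 2.78 CPM in Ctrl and reached 18.1 ± 3.35 in KO TAC, 1.02 higher on the log2 scale than Ctrl TAC (adjusted p = 0.0104). Adamts2, which removes the amino-terminal propeptide, and Loxl1 rose with TAC in Ctrl by 1.28 and 1.24 (adjusted p = 3.18e-07 and 1.34e-06) and were higher in KO TAC than in Ctrl TAC by 0.43 and 0.46 (adjusted p = 0.035 and 0.0374). Tll2, a proteinase of the tolloid family, was lower in KO TAC (log2 difference -1.14, adjusted p = 0.0403), at 0.544 ± 0.171 against 1.21 ± 0.358 CPM.

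Of 17 fibril-associated partners, 13 rose and 1 fell with TAC in Ctrl, 14 rose and 1 fell in KO, and 7 were higher and 0 lower in KO TAC than in Ctrl TAC (5 and 0 without KO TAC 4). Fmod, the small proteoglycan fibromodulin, rose from 0.477 ± 0.255 to 4.59 ± 2.24 CPM in Ctrl and stood at 13.8 ± 3.19 in KO TAC (difference 1.58, adjusted p = 0.0422, and 1.65 with an adjusted p of 0.0581 without KO TAC 4). Comp, cartilage oligomeric matrix protein, rose from 2.01 ± 0.52 to 10.3 ± 5.12 and stood at 31.8 ± 5.06 in KO TAC (1.63, adjusted p = 0.0194). Col12a1, a fibril-associated collagen, was higher in KO TAC than in Ctrl TAC by 1.3 (adjusted p = 0.00563), and Bgn, the proteoglycan biglycan, by 0.59 (adjusted p = 0.0104). The other genes named as higher or lower in KO TAC kept their calls without KO TAC 4 (adjusted p from 0.00606 for Col12a1 to 0.043 for Tll2). With a term for the series of animal numbers, however, only 12 of all genes were called between the TAC groups, against 489 without the term. Which of the genes named from the lists are among the 12 is not given here. None of the genes named from these lists passed the interaction test (adjusted p from 0.11 for Col12a1).

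Of 9 receptor genes tested, 4 rose with TAC in Ctrl and 5 in KO (4 without KO TAC 4), 0 fell, and 0 differed between KO TAC and Ctrl TAC. Itga11, an integrin subunit for collagen, and Mrc2, an endocytic collagen receptor, each rose by 0.91 in Ctrl (adjusted p = 0.00779 and 3.12e-07). Ddr1, a collagen-binding receptor kinase, rose by 0.49 (adjusted p = 0.000139). Itgb1, the shared integrin subunit, rose by 0.17 (adjusted p = 0.0142). Of 9 breakdown genes tested, 4 rose in Ctrl, 5 rose and 2 fell in KO (5 and 1 without KO TAC 4), and 4 were higher in KO TAC than in Ctrl TAC, with or without KO TAC 4. Timp1, an inhibitor of metalloproteinases, rose by 2.09 in Ctrl (adjusted p = 8.56e-06). Ctsk (a collagen-cleaving cathepsin), Mmp2 and Mmp14 (metalloproteinases) rose by 0.93, 0.55 and 0.48 in Ctrl (adjusted p = 5.82e-05, 0.00249 and 0.016), and in KO TAC were higher by 0.6, 0.56 and 0.51 than in Ctrl TAC (adjusted p = 0.0184, 0.0194 and 0.0446).

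Markers of the cells that the tissue holds were read beside these changes. The summed CPM of 7 fibroblast markers ran from 892 to 1021 in Ctrl sham, 928 to 984 in KO sham, 831 to 1057 in Ctrl TAC and 955 to 1064 in KO TAC. Gsn alone averaged 762, 755, 714 and 751 CPM in these groups and made up most of the sum. The means of Pdgfra, Tcf21, Cd34 and Pdgfrl were higher after TAC in both genotypes, that of Scara5 was lower, and Dpt changed little. In Ctrl, Cd34 went from 86.8 to 119 CPM and Scara5 from 26.8 to 13.9. With TAC 2 of the 7 rose and 1 fell in Ctrl, and 4 rose and 1 fell in KO, with median log2 changes of 0.25 and 0.31 beside 1.43 and 1.91 for the tested collagen genes. The sum of 8 cardiomyocyte markers was 53785 to 61726 CPM in Ctrl sham and 54898 to 60008 in KO sham, and it was 46945 to 51096 in Ctrl TAC and 41295 to 42653 in KO TAC. Of these 8 genes, 5 fell with TAC in Ctrl and 7 in KO, and 2 were lower in KO TAC than in Ctrl TAC, with or without KO TAC 4, beside 9.6, 16.5 and 1.32% of all genes. The sum of 6 macrophage markers ran from 88.6 to 113 CPM in Ctrl sham and 88.3 to 103 in KO sham, and from 127 to 147 in Ctrl TAC and 133 to 185 in KO TAC, with 4 of the 6 genes called higher after TAC in Ctrl and all 6 in KO. Of 6 endothelial markers none was called in either genotype (median log2 changes 0.04 and 0.01), and of 5 smooth muscle markers 1 rose and 1 fell in Ctrl and 2 rose and 1 fell in KO. The counts of called markers were the same without KO TAC 4. The part of these shifts in the collagen results was not tested.

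Of 8 cartilage markers 4 could be tested, of which 3 (Sox9, Acan and Col9a2) rose and 1 (Cnmd) fell with TAC in each genotype. Col9a1 was at 0 in all 16 libraries. Acan averaged 0.0258 CPM in Ctrl sham, 0.0175 in KO sham, 0.313 in Ctrl TAC and 0.528 in KO TAC. It passed the filter through its TAC libraries, so its rise is no separate support. The summed level of the 8 ran from 2.15 to 2.77 CPM in Ctrl sham and 2.13 to 2.55 in KO sham, and from 3.72 to 6.71 in Ctrl TAC and 6.67 to 8.43 in KO TAC. After TAC most of it came from Sox9 (mean 2.62 CPM in Ctrl, 3.89 in KO) and Col9a2 (1.28 and 2.58). Cnmd went from 1.06 to 0.457 CPM in Ctrl and from 1.08 to 0.16 in KO. None of 5 bone markers passed the filter, and their sum did not exceed 0.32 CPM in any library.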

How the data were processed

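The deposited table held raw counts per gene, made by the authors from paired 150-base reads of poly(A) RNA from 16 hearts. The submitters' processing notes name cutadapt 2.3, FastQC, HISAT2 2.1.0, edgeR 3.26.1 and the build GRCm38. The counting program, its annotation and its use of strand are not given in the sources used here. Of 55487 Ensembl identifiers, 55141 (99.4%) matched GENCODE M21, and those without a match held 0.0131% of counts.

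Counts were fitted with edgeR 4.0.16 (R 4.3.3; filterByExpr, TMM scaling, robust quasi-likelihood test) in one model with a mean for each of 4 groups over all 16 libraries. P-values were adjusted by Benjamini-Hochberg over 18275 genes, with 0.05 as the threshold. The fit was tested on simulated data. CPM is the count divided by the TMM-scaled library total, and standard errors are those of log2 fold changes. Ratios of counts were tested with exact two-sided permutation tests. Deviation correlations used log2 CPM with a prior count of 2, and likeness was read only for genes whose mean log2 CPM reached 2. DESeq2 1.42.0 and limma 3.58.1 were installed, and DESeq2 served as an alternative test. Levels, shares and list counts without KO TAC 4, and correlations without Ctrl sham 1 or within 1 group, were added after seeing the data.

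All 10 members were described. For each of Col1a1, Col3a1 and Col5a1 the 5 genes of highest deviation correlation were named, leaving out predicted genes. From each pathway list, up to 4 genes with the largest change among those called for TAC in Ctrl and up to 2 among those called between TAC groups were named. The members and lists were chosen with earlier results of these data known. Replicate numbers follow the order of deposition. The labels do not tie libraries to separate surgeries or days, so that p-values measure the spread between these animals only. No pair of replicate libraries agreed within sampling noise. Library totals of 53169437 to 79404714 counts set the precision, and intervals from counts alone would leave out the spread between animals.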

Additional observations from a re-analysis of the deposited data

Results flagged for a closer look

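Among 52 groups of 4 libraries examined (the log2 CPM of the tested genes and the log2 ratios of their counts), 5 held a library far from the other 3, judged by its gap to the nearest library as a share of the group's range against Dixon's 95% critical value. Chance gives about 1 in 20 such groups, but the groups share genes and libraries and are not independent, so the 5 cannot be weighed against that rate. Col5a1 was lowest in Ctrl sham 1, with a gap share of 0.869 and 26.2 CPM against 31.5 to 32.3 in the others. Col5a1 was highest in Ctrl TAC 4, with a gap share of 0.912 and 72.6 CPM against 64.2 to 64.9. Col1a1 was highest in KO TAC 3, with a gap share of 0.833 and 208 CPM against 192 to 194. Col3a1 was highest in KO TAC 2, with a gap share of 0.963 and 448 CPM against 407 to 409. The ratio of Col1a1 to Col3a1 counts was lowest in Ctrl TAC 3, with a gap share of 0.866 and a ratio of 0.41, beside a group maximum of 0.519.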

How the results depend on the processing

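No paired analysis was possible because the replicate numbers follow the order of deposition and the labels tie no library of one group to one of another. The calls of Col1a1, Col1a2, Col3a1, Col5a1 and Col5a2 for TAC against sham held in both genotypes under all 24 alternatives. Col11a2 in KO lost its call in 1 of 24, with the term for animal numbers starting with 33. The number of fibrillar collagen genes higher in KO TAC than in Ctrl TAC, 2 in the report, was 0 with a term for the series of animal numbers and at an adjusted p under 0.01, 1 without the filter on low counts and with both Ctrl TAC 2 and KO TAC 4 left out, and 5 with DESeq2. It was 1 to 5 when 1 library was left out, with 5 without Ctrl sham 1 and 4 without Ctrl TAC 4. The number of all genes called there, 489, was 12 with the series term, 19 at 0.01, 109 with both libraries left out, 154 in the fit to the 8 TAC libraries, 285 without the filter and 1183 with DESeq2, and 63 (without Ctrl TAC 2) to 733 (without Ctrl TAC 4) without 1 library. For TAC in Ctrl, 3652 genes became 2076 at 0.01, and 2694 to 3719 without 1 library. For KO sham against Ctrl sham, 0 genes became 2 in the fit to 8 libraries, 1 with both libraries left out, 3 with DESeq2 and 0 to 2 without 1 library. For the interaction, 2 genes became 1 without the filter, 132 with DESeq2 and 0 at 0.01, with either animal-number term and with both libraries left out, and 0 to 18 without 1 library, and the fibrillar collagen genes called were 1 with DESeq2.

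Small differences changed sign without passing a threshold, and the cause was not tested. For KO TAC against Ctrl TAC, Col5a3 (0.06) became -0.02 with the series term and ranged from -0.02 to 0.14 over all alternatives (-0.01 without Ctrl TAC 4), and Col11a2 (-0.15) ranged from -0.28 to 0 (without KO TAC 3). For KO sham against Ctrl sham, Col11a1 became 0.09 with a term for animal numbers starting with 33 and ranged from -1.07 to 0.05 without 1 library, Col1a2 from -0.13 to 0.05 and Col5a2 from -0.12 to 0. With both libraries left out, log2 differences became 0 for Col1a1/Col1a2 between TAC groups and 0.01 for the Col3a1/Col5a2 interaction. Without 1 library, Col1a1/Col3a1 ranged from -0.06 to 0.06 for TAC in Ctrl, -0.12 to 0 between TAC groups and 0 to 0.05 between sham groups. Col1a1/Col1a2 ranged from -0.11 to 0 between TAC groups and -0.04 to 0.09 for the interaction, Col5a1/Col1a1 from -0.01 to 0.1 between sham groups, and Col3a1/Col5a2 from -0.1 to 0.04 for the interaction. Depth limits Col2a1, Col11a1 and Col24a1, which had 0 to 43 counts in a library.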
